A study of Mus musculus with 6 samples.

Results

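The choroid plexus epithelium genes are a set of 37 mouse genes used as markers of the cell layer that makes cerebrospinal fluid, or active in its secretory work. They were listed by name, with earlier results of these data known, and each gene was read from the probe set annotated to that 1 symbol, taking the one with the highest mean over the 6 arrays where there were several. Of the 37 genes, 32 had such a probe set, among 22180 genes tested in all. Kcnj13, Msx1 and Car14 lay on probe sets shared with other genes and are given no value, and Enpp2 and Prlr were not named in the annotation used here.

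The choroid plexus is a folded epithelium over a core of stroma and leaky vessels that hangs into the ventricles of the brain. In the hindbrain it grows from the roof plate beside the rhombic lip and ends up in the roof of the fourth ventricle, against the underside of the cerebellum. Its cells carry ions, bicarbonate and water toward the ventricle through pumps, cotransporters and channels, are sealed by claudins, and release carrier proteins and growth factor modulators. Transthyretin, encoded by Ttr, is its best known product.

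RNA came from mouse cerebellum at postnatal day 7. The knockout group (Math1Cre::CrebbpFl/Fl) had 3 arrays, and the wild-type group, which carried Math1Cre with unfloxed Crebbp, also had 3. Math1 (Atoh1) is a gene of granule neuron precursors and other rhombic lip derivatives, and both groups carry the Cre. Whether the floxed allele was also recombined in choroid plexus cells was not tested. The labels give neither the way the cerebellum was freed of adjoining tissue nor whether each array is a separate animal, and a p-value here speaks only of the spread among these 6 samples, some of which may be technical. The labels name no litter, extraction or scan batch.

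Values are log2 expression values from the deposited table, with no measure of background, so a low value cannot be called absent. Median values were 7.25 to 7.29 on the knockout arrays and 7.25 to 7.26 on the wild-type arrays, and the 25th percentile over all probe sets was 6.02. Crebbp, which encodes an acetyltransferase and transcriptional coactivator, read 11.46, 11.42 and 11.32 in knockout replicates 1, 2 and 3, against 11.96, 11.99 and 11.90 in wild-type replicates 1, 2 and 3, and its change of -0.56 (SE 0.05) passed the test (limma adjusted p = 0.000354). The cerebellar genes Zic1 (12.85 to 12.90 in knockout, 13.08 to 13.17 in wild type) and Calb1, of Purkinje cells (12.50 to 12.54 in knockout, 12.30 to 12.39 in wild type), were bright on all 6 arrays. Granule lineage genes differed between the groups, in both directions. Zic1 fell by 0.24 (adjusted p = 0.00823) and Neurod1, a neuronal differentiation factor, fell by 0.51 (8.19, 8.46 and 8.51 in knockout, 9.07, 8.96 and 8.67 in wild type, adjusted p = 0.0245). Atoh1 rose by 0.52 (10.34, 10.12 and 10.14 in knockout, 9.68, 9.74 and 9.64 in wild type, adjusted p = 0.00191). Gabra6, a receptor subunit of mature granule neurons, read 8.07, 9.10 and 9.09 in knockout, against 9.45, 10.27 and 9.53 in wild type, and did not pass (adjusted p = 0.0627). The part of this in the results on the choroid plexus was not tested. Below, 3 values of a group always stand in the order of replicates 1, 2 and 3, a change is the knockout mean minus the wild-type mean on the log2 scale, and "rose" and "fell" are kept for genes with a limma adjusted p under 0.05 over all 22180 genes.

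The choroid plexus genes were high in knockout replicates 1 and 3 and not in knockout replicate 2. Knockout replicate 3 held the highest of the 6 values for 29 of the 32 genes (18.1% of all genes), and knockout replicate 1 came next for 28 of these (4.87% of all genes had this order). Against the mean of the wild-type arrays, the median gene of the set stood at 0.74 in knockout replicate 1, -0.11 in knockout replicate 2 and 1.49 in knockout replicate 3. The genes moved far: 23 of 32 spanned at least 1 log2 unit over the arrays, against 1.74% of all genes, and the median span was 1.75, against 0.30 over all genes.

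**Figure D1:**
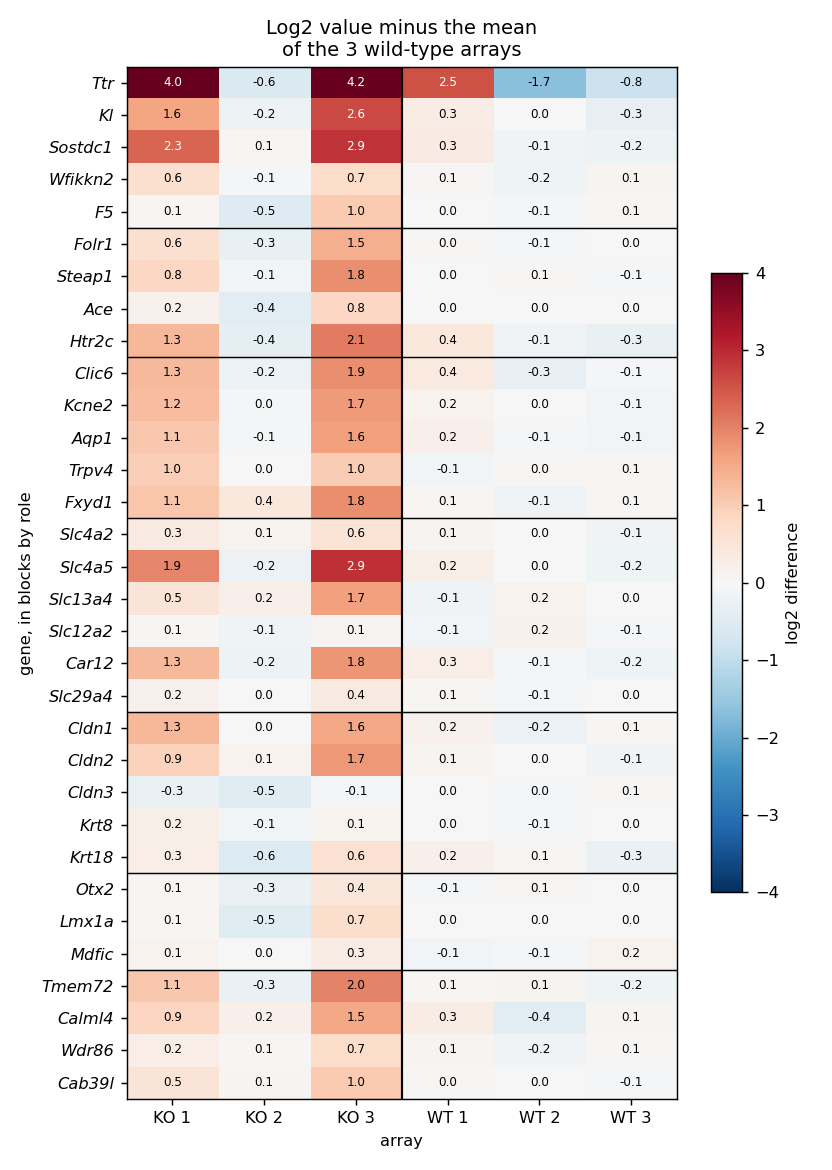
Log2 value of each of the 32 choroid plexus genes (rows, in blocks by role) on each array (columns, knockout left, wild type right), minus the mean of the 3 wild-type arrays of that gene. Knockout replicates 1 and 3 are red in most rows, knockout replicate 2 is near 0 or blue in most, and among the wild-type columns the strongest colours belong to Ttr, red on replicate 1 and blue on replicates 2 and 3.

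Read as groups, knockout against wild type, nearly all differences of the set missed the threshold. Of the 32 genes, 1 rose (2.72% of all genes rose), 0 fell (3.94% of all genes fell) and 31 did not pass. Without adjustment, 18 were higher and 1 was lower at p under 0.05 in limma, against 9.57% and 10.9% of all genes. The change was above 0 for 31 of 32 genes, with a median of 0.73 (0.00 over all genes), and the median SE was 0.29 (0.08 over all genes). The spread was wider in knockout: the median SD within the group was 0.74 in knockout and 0.14 in wild type for the set, against 0.09 and 0.08 over all genes.

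Knockout replicate 2 stood within or below the wild-type values for most of these genes. It lay above all 3 wild-type values for 5 of the 32 genes (30.0% of all genes), within their range for 13, and below all 3 for 14 (29.8% of all genes). Knockout replicate 1 was above every wild-type array for 29 genes (28.1% of all genes) and knockout replicate 3 for 30 (29.9% of all genes). Each of these 2 arrays was below every wild-type array for 1 gene, Cldn3 on both (30.1% of all genes for knockout replicate 1 and 32.4% for knockout replicate 3).

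**Figure D2:**
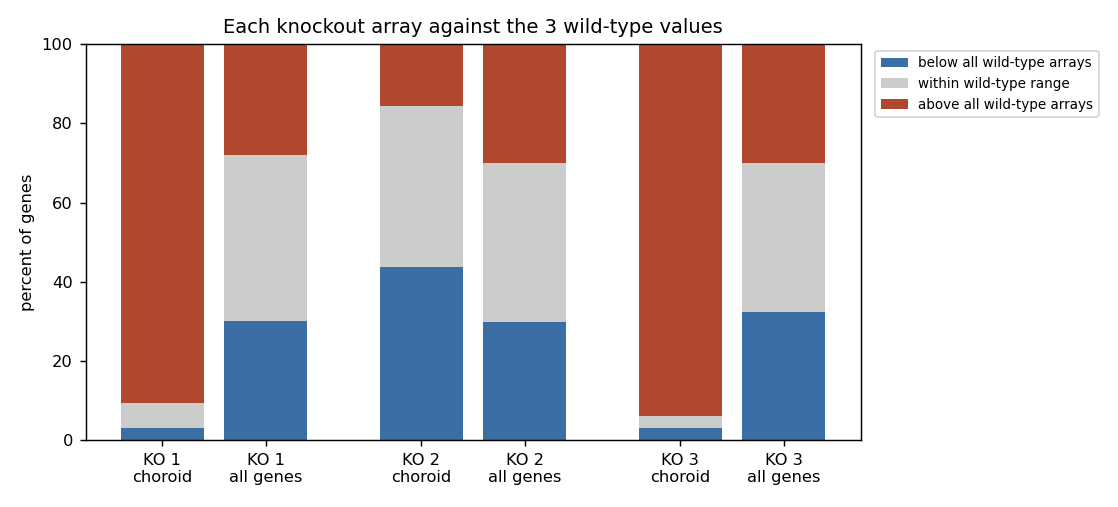
Share of genes (percent) that lay below, within or above the 3 wild-type values on each knockout array, for the 32 choroid plexus genes ("choroid") and for all 22180 genes. The choroid bars of knockout replicates 1 and 3 are nearly all above the wild-type arrays (29 and 30 of 32 genes), and that of knockout replicate 2 is not (5 of 32).

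Leaving each array out in turn shows how much the group result owes to single arrays. Without knockout replicate 2, 21 of the 32 genes rose, while 2.15% of all genes did, and the median change was 1.06. Sostdc1 (2.61, adjusted p = 0.000238), Slc4a5 (2.43, adjusted p = 0.000946), Cldn1 (1.45, adjusted p = 0.000567) and Ttr (4.08, adjusted p = 0.0379) were among them. The 11 that still did not pass were Ace, Cldn3, F5, Krt8, Krt18, Lmx1a, Mdfic, Otx2, Slc12a2, Slc29a4 and Wdr86. Without knockout replicate 1 no gene of the set rose (1.43% of all genes) and the median was 0.67. Without knockout replicate 3, 1 rose and 1 fell (2.16% and 2.78% of all genes), with a median of 0.35. Without wild-type replicate 1, 2 or 3 no gene of the set rose (0.897%, 1.39% and 1.90% of all genes), with medians of 0.67, 0.68 and 0.74. The array whose absence gives 21 calls is the one on which the set read lowest among the knockouts, so that count describes the remaining arrays and is no second test of the genotype. In bulk tissue, more epithelial cells in a sample and more RNA of these genes per cell cannot be told apart.

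**Figure D3:**
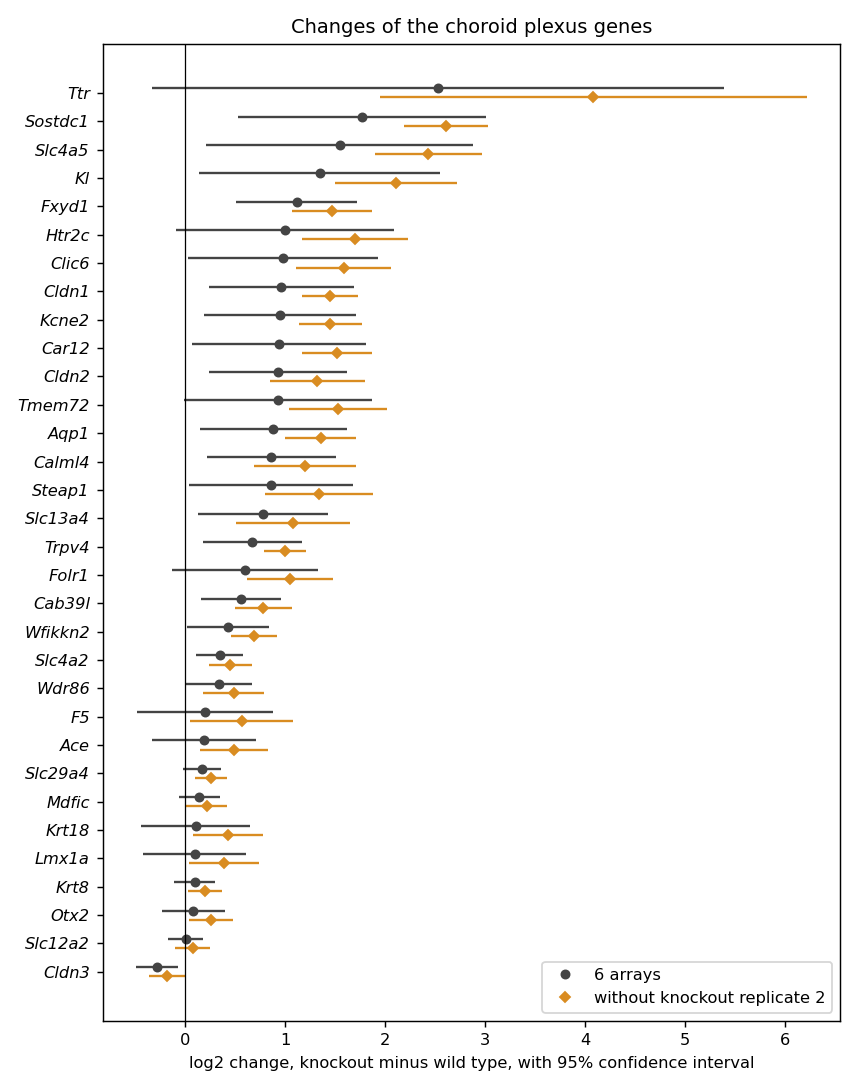
Change of each choroid plexus gene (log2, knockout minus wild type, with its 95% confidence interval from limma), from all 6 arrays (dark) and without knockout replicate 2 (orange). Without that array most intervals narrow and most move right, as for Sostdc1 (1.77 with all arrays, 2.61 without it), while Slc12a2 stays near 0. The Cldn3 change goes from -0.28 to -0.18, and its interval without that array, -0.36 to 0.01, includes 0.

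Among the secreted proteins, Ttr, the carrier of thyroid hormone and of retinol-binding protein, varied most. It read 13.77, 9.19 and 13.92 in knockout and 12.30, 8.08 and 8.91 in wild type, a span of 5.85 log2 units or 57.5-fold, the second widest of all genes tested after Xist. Its groups overlapped, and its change of 2.53 (SE 1.28, 95% interval -0.33 to 5.39) did not pass (adjusted p = 0.311). Wild-type replicate 1 lay 3.39 above the higher of the other wild-type arrays, and so nearer to the high knockout arrays than to its own group.

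Sostdc1, a secreted antagonist of BMP and WNT signals, read 9.45, 7.22 and 10.03 in knockout, against 7.46, 7.00 and 6.93 in wild type. Its change was 1.77 (SE 0.56, adjusted p = 0.0970). Kl, which encodes klotho, the co-receptor of FGF23 that is also shed into cerebrospinal fluid, read 8.41, 6.63 and 9.47 in knockout, against 7.13, 6.85 and 6.50 in wild type (change 1.35, SE 0.54, adjusted p = 0.192). For both genes, knockout replicate 2 lay among the wild-type values and the other knockout arrays stood at least 1 log2 unit above them. Wfikkn2, a secreted protein that binds growth factors of the GDF8 and GDF11 type, moved less: 7.72, 6.98 and 7.79 in knockout, against 7.13, 6.90 and 7.17 in wild type (change 0.43, adjusted p = 0.225). F5, coagulation factor V, was high on knockout replicate 3 alone, with 6.06, 5.44 and 7.01 in knockout and 5.94, 5.90 and 6.05 in wild type (change 0.20, adjusted p = 0.789).

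**Figure D4:**
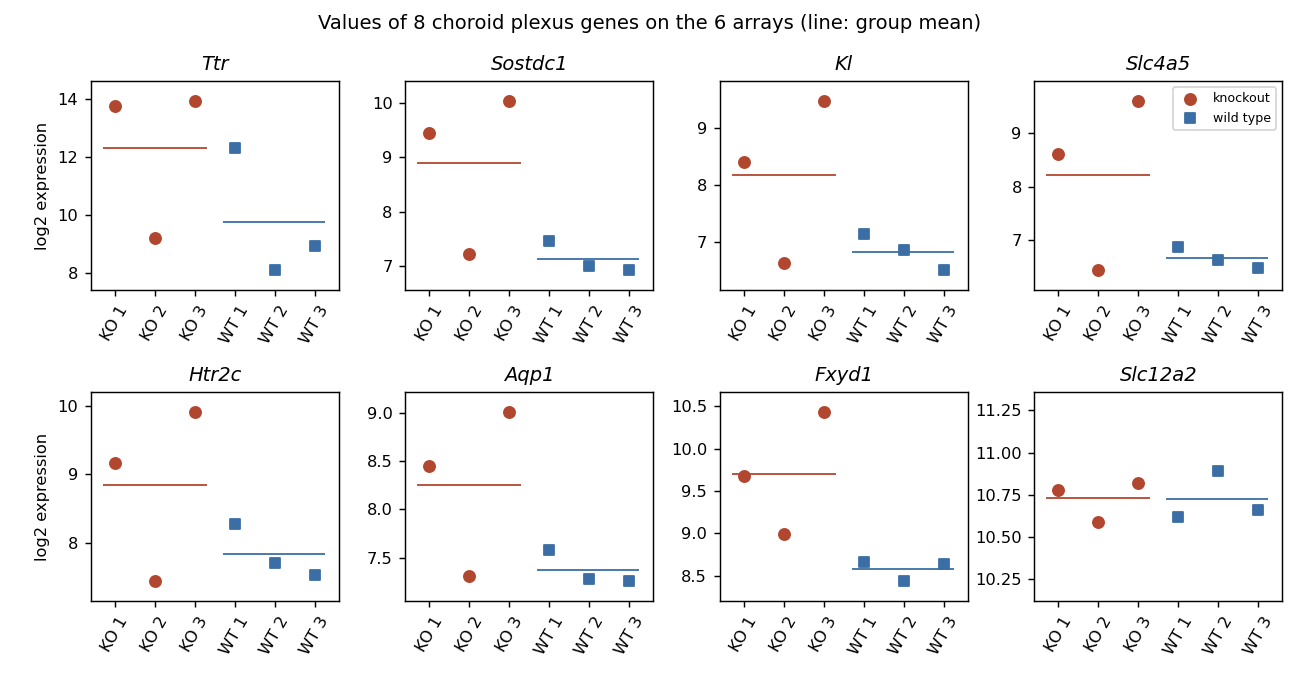
Log2 expression of 8 choroid plexus genes on each knockout (circles, left) and wild-type (squares, right) array, with a line at each group mean and a scale of its own for each gene. Knockout replicate 2 sits among or just under the wild-type arrays for Sostdc1, Kl, Slc4a5, Htr2c and Aqp1, above them for Fxyd1, and for Ttr wild-type replicate 1 sits near the high knockout arrays. The Slc12a2 values lie between 10.59 and 10.89.

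Receptors and surface enzymes gave the same order of arrays. Htr2c, the serotonin 2C receptor, which is abundant in this epithelium, read 9.17, 7.44 and 9.91 in knockout, against 8.27, 7.70 and 7.53 in wild type (change 1.0, SE 0.49, adjusted p = 0.290). Folr1, the folate receptor that moves folate into cerebrospinal fluid, read 7.90, 6.96 and 8.71 in knockout, against 7.31, 7.17 and 7.29 in wild type (change 0.60, adjusted p = 0.354). The groups overlapped for each, and knockout replicate 2 lay under the wild-type arrays. Steap1, of the STEAP family of metalloreductases, had 6.80, 5.87 and 7.83 in knockout and 5.95, 6.04 and 5.93 in wild type (change 0.86, adjusted p = 0.224). Ace, angiotensin-converting enzyme, stood out on knockout replicate 3, with 8.89, 8.31 and 9.55 in knockout and 8.75, 8.73 and 8.70 in wild type (change 0.19, adjusted p = 0.727).

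Htr2c carries small RNA genes within its interval, of which 6 of 8 were measured, so the receptor's pattern could be read again from other probe sets. Mir204, a microRNA gene known from pigment epithelium and choroid plexus, lies inside Trpm3, a cation channel gene of the same epithelium, and was the only measured one of 7 genes inside it. Their RefSeq mature sequences are shown because these microRNA genes lie inside choroid plexus genes (assembly GRCm38.p6, plus strand, 5′ to 3′, capitals mark the seed, bases 2 to 8). The 10 mature sequences of the 6 microRNA genes had 10 different seeds, so none are grouped. The 6 shown are those of the microRNA genes with the widest spans.
miR-1912-3p, chrX:147009493-147009514: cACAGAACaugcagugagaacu
miR-1264-3p, chrX:147010655-147010676: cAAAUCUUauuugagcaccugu
miR-764-5p, chrX:147002285-147002303: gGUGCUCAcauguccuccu
miR-764-3p, chrX:147002324-147002345: aGGAGGCCauaguggcaacugu
miR-204-5p, chr19:22750610-22750631: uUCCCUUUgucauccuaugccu
miR-204-3p, chr19:22750649-22750669: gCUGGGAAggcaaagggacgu

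Mir1912 read 8.87, 6.24 and 9.65 in knockout, against 7.13, 6.69 and 6.23 in wild type, a span of 3.43 log2 units (change 1.57, adjusted p = 0.227). Snora35, a small nucleolar RNA gene of the same host, read 8.98, 6.73 and 9.57 in knockout, against 7.56, 6.93 and 6.84 in wild type (change 1.32, adjusted p = 0.227). Mir1264 read 5.41, 3.63 and 5.43 in knockout, against 3.81, 3.88 and 3.99 in wild type (change 0.93, adjusted p = 0.222). All 3 were highest on knockout replicates 1 and 3, as Htr2c was. Mir764 (7.14, 6.58 and 7.61 in knockout, 6.80, 6.52 and 6.66 in wild type) followed with a smaller span. Mir448, further along the gene, read 5.81, 5.70 and 5.84 in knockout and 5.77, 5.74 and 5.93 in wild type, and Mir1298 differed by 0.29 (adjusted p = 0.479). Mir204 read 7.18, 5.47 and 8.08 in knockout, against 5.65, 5.30 and 5.94 in wild type (change 1.28, adjusted p = 0.183). Igf2 and Slco1a5, choroid plexus genes outside the set, each hold a measured gene that did not follow this order. Mir483, inside Igf2, read 9.11, 9.10 and 8.93 in knockout, against 9.22, 9.36 and 9.18 in wild type (change -0.20, adjusted p = 0.131). The dim Iapp, inside Slco1a5, differed by -0.18 (adjusted p = 0.463). For both, every knockout array was under every wild-type array (13.1% of all genes). Probe sets of small RNA genes can also pick up the unspliced host transcript, so a mature microRNA, its precursor and its host cannot be told apart here, nor can the arm.

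The channels and the pump subunit include the one gene of the set that rose. Fxyd1, phospholemman, which regulates the sodium pump, read 9.68, 8.99 and 10.43 in knockout, against 8.66, 8.44 and 8.64 in wild type. All knockout arrays were above all wild-type arrays, knockout replicate 2 included, and the change of 1.12 (SE 0.27, 95% interval 0.51 to 1.72), or 2.17-fold, passed with an adjusted p of 0.0390. The call did not outlast the loss of knockout replicate 1 (adjusted p = 0.0936) or of wild-type replicate 1, 2 or 3 (adjusted p = 0.116, 0.130 and 0.0798), with changes of 1.05 to 1.16 in those fits. No gene of the set rose with a limma prior that ignores mean brightness (0.830% of all genes) or with a robust prior (2.82% of all genes).

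Aqp1, the water channel of the apical membrane, read 8.45, 7.31 and 9.01 in knockout, against 7.58, 7.28 and 7.26 in wild type (change 0.88, SE 0.33, adjusted p = 0.159). Kcne2, a potassium channel subunit, read 8.06, 6.78 and 8.52 in knockout, against 6.98, 6.80 and 6.71 in wild type (change 0.95, adjusted p = 0.140). Both had knockout replicate 2 inside the wild-type range. Clic6, a chloride intracellular channel protein, read 7.79, 6.26 and 8.36 in knockout, against 6.88, 6.17 and 6.42 in wild type (change 0.98, adjusted p = 0.227). Trpv4, a cation channel that responds to cell swelling, had nearly equal values on the high arrays: 7.74, 6.78 and 7.78 in knockout, against 6.66, 6.80 and 6.83 in wild type (change 0.67, adjusted p = 0.110).

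The ion and solute transporters ranged from wide to nearly flat. Slc4a5, a sodium bicarbonate cotransporter of the apical membrane, read 8.61, 6.44 and 9.59 in knockout, against 6.88, 6.63 and 6.49 in wild type (change 1.55, SE 0.60, adjusted p = 0.173). Car12, a membrane-bound carbonic anhydrase, read 8.30, 6.79 and 8.75 in knockout, against 7.26, 6.91 and 6.84 in wild type (change 0.94, adjusted p = 0.206). For 2 others the groups did not overlap. Slc13a4, a sodium sulfate cotransporter that meningeal cells also express, read 9.07, 8.75 and 10.21 in knockout, against 8.43, 8.71 and 8.55 in wild type (change 0.78, adjusted p = 0.158). Slc4a2, the basolateral chloride bicarbonate exchanger, read 8.51, 8.30 and 8.72 in knockout, against 8.28, 8.17 and 8.03 in wild type (change 0.35, adjusted p = 0.0848).

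Slc12a2 and Slc29a4 had small spans. Slc12a2, the cotransporter NKCC1, read 10.78, 10.59 and 10.82 in knockout, against 10.62, 10.89 and 10.66 in wild type, and its change of 0.01 (adjusted p = 0.973) was far under the spread between arrays. Slc29a4, a monoamine transporter, read 10.15, 9.98 and 10.35 in knockout, against 9.92 to 10.05 in wild type (change 0.17, adjusted p = 0.296), with the same order of knockout arrays as most of the set.

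Tight junction genes split. Cldn1 read 8.65, 7.30 and 8.87 in knockout, against 7.47, 7.06 and 7.39 in wild type (change 0.96, adjusted p = 0.121). Cldn2, a claudin that forms cation and water pores, read 6.44, 5.68 and 7.27 in knockout, against 5.64, 5.56 and 5.39 in wild type (change 0.93, adjusted p = 0.113). Cldn3 went the other way, with 7.87, 7.66 and 8.05 in knockout and 8.12, 8.10 and 8.20 in wild type. Every knockout array was under every wild-type array there, by a change of -0.28 (SE 0.09, adjusted p = 0.124), and without knockout replicate 3 it fell by 0.37 (adjusted p = 0.0361). The epithelial keratins Krt8 and Krt18 did not pass, with changes of 0.10 (adjusted p = 0.642) and 0.11 (adjusted p = 0.872). Krt18 was the only gene of the set with another probe set, which differed by 0.13 (adjusted p = 0.61).

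Over the set, all knockout arrays exceeded all wild-type arrays for 5 genes, Fxyd1, Slc4a2, Slc13a4, Cldn2 and Cab39l, where 11.8% of all genes did so. The reverse held for Cldn3 alone, where 13.1% of all genes did so.

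The transcription regulators of the lineage had small differences. Otx2, a homeodomain factor needed for choroid plexus development, read 9.26, 8.92 and 9.63 in knockout, against 9.12, 9.24 and 9.21 in wild type (change 0.08, adjusted p = 0.811). Lmx1a, a roof plate factor also active in rhombic lip cells, read 6.97, 6.38 and 7.57 in knockout, against 6.88, 6.91 and 6.85 in wild type (change 0.10, adjusted p = 0.877). For both, knockout replicate 3 was the highest and knockout replicate 2 the lowest of the 6 arrays. Without knockout replicate 3 their changes were -0.10 and -0.20. Mdfic, a regulator of transcription factors, differed by 0.14 (adjusted p = 0.438).

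OTX factors bind the letters TAATCC, which were looked for on both strands (GGATTA on the other) in RefSeq promoter windows of 300 bases, 250 before and 50 after an annotated start, where a gene with several starts can have several windows. Of the measured genes of the set, 27 had at least 1 window, and 2 of them (7.41%) held the motif, against 2199 of 27025 genes with a window (8.14%). Over windows, these were 2 of 34 (5.88%), against 2320 of 32851 (7.06%). They were Ace, with the motif beginning 27 bases before the start of its window's transcript (-27), and Otx2, at -211 in the window of a start that lies inside the gene, downstream of its outermost start. The windows are shown because they are the ones that hold it (GRCm38.p6, 5′ to 3′ on the gene's strand, motif in capitals). A match is a run of letters, not a shown binding site.
Ace, chr11:105967698-105967997, plus strand: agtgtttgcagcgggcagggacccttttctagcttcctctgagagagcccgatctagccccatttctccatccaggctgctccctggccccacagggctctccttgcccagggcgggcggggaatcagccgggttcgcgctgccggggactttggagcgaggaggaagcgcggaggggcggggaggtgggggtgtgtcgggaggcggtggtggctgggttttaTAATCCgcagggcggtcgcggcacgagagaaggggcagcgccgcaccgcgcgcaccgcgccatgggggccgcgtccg
Otx2, chr14:48665060-48665359, minus strand: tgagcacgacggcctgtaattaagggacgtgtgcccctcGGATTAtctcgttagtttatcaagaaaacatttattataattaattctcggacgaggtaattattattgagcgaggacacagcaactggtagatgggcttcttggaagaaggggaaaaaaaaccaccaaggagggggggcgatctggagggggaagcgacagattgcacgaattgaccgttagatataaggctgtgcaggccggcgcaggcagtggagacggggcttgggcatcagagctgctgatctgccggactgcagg

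Of the remaining genes, Tmem72, a membrane protein, read 7.84, 6.50 and 8.74 in knockout, against 6.82, 6.88 and 6.59 in wild type (change 0.93, adjusted p = 0.250). Calml4, a calmodulin-like protein, read 7.76, 7.09 and 8.43 in knockout, against 7.19, 6.48 and 7.01 in wild type (change 0.86, adjusted p = 0.115). Cab39l, a partner of the kinase LKB1, read 10.59, 10.18 and 11.12 in knockout, against 10.11, 10.09 and 10.01 in wild type (change 0.56, SE 0.18, adjusted p = 0.101). The groups were apart for Cab39l, by a small margin on knockout replicate 2. Wdr86, a WD repeat protein, differed by 0.34 (adjusted p = 0.227).

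The size of the excess on knockout replicate 1 relative to knockout replicate 3 was not one ratio. For the 29 genes on which both lay above every wild-type array, the excess over the wild-type level was computed on the linear scale. On knockout replicate 1 it was a median of 43.2% of that on knockout replicate 3, from 6.11% for F5 to 163% for Krt8. Both ends rest on small excesses and are imprecise. F5 stood 0.09 log2 over the wild-type mean on knockout replicate 1, with a wild-type SD of 0.08. Krt8 stood 0.25 and 0.16 over it on knockout replicates 1 and 3. The percentage was 89.5% for Ttr, which lay near the table's maximum of 14.3, 94.1% for Trpv4 and 38.3% for Kl. Whether the compression of very bright or dim signals plays a part in this was not tested.

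Wild-type arrays differed too, though less. Wild-type replicate 1 was the highest of the 3 for 20 of the 32 genes (33.7% of all genes), but its median deviation from the wild-type mean was 0.07. Ttr and Htr2c had the widest excess over the next wild-type array, 3.39 and 0.57. Slc13a4, Slc12a2, Mdfic, Trpv4 and Otx2 had wild-type replicate 1 as the lowest. For 16 genes, the 3 highest values lay on knockout replicates 1 and 3 and wild-type replicate 1 (4.54% of all genes).

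A further list of 24 choroid plexus genes, all measured, was chosen with earlier results of these data known. Its mean gave the same order of knockout arrays with smaller differences, at 0.41, 0.00 and 0.77 above the wild-type mean. Of the 24 genes, 22 were highest on knockout replicate 3 (18.1% of all genes). For 16, knockout replicate 1 came next (4.87% of all genes had this order). Knockout replicate 2 lay above all wild-type arrays for 9 genes (30.0% of all genes), and all knockout arrays did for 7 (11.8% of all genes). With all arrays, 1 rose (2.72% of all genes), 0 fell (3.94% of all genes) and the median change was 0.29. Without knockout replicate 2, 13 rose (2.15% of all genes). This list too stood lowest among the knockouts on that array, so the count describes the remaining arrays and is no second test of the genotype. Ecrg4, which encodes a secreted peptide precursor, read 9.46, 7.74 and 10.25 in knockout, against 8.04, 7.74 and 7.51 in wild type (change 1.39, adjusted p = 0.130). Trpm3 differed by 0.50 (adjusted p = 0.414), Stra6, the retinol-binding protein receptor, by 0.18 and Slc28a3, a nucleoside transporter, by 0.31. Slc31a1, the copper transporter CTR1, rose by 0.27 (adjusted p = 0.0465), a call kept without knockout replicate 2 alone of the arrays (adjusted p of 0.083 to 0.128 without any other). It did not pass with a prior without a trend (adjusted p = 0.139) or with median centring (adjusted p = 0.0566).

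Markers of neighbouring cells moved with the choroid plexus genes on some arrays and not on others, and their part in the result was not tested. The 15 meningeal and stromal fibroblast genes averaged 0.01, 0.10 and 0.44 above the wild-type mean on the knockout arrays (-0.05 to 0.03 on the wild-type arrays), and 14 were highest on knockout replicate 3. Of them, 1 rose with all arrays (2.72% of all genes), the matrix proteoglycan gene Bgn (0.34, adjusted p = 0.0045), and 0 fell (3.94% of all genes). Col1a1, Col1a2, Col3a1 and Dcn, which encode matrix collagens and decorin, differed by 0.41, 0.31, 0.19 and 0.35 without passing. Without knockout replicate 1, 5 rose (1.43% of all genes), namely Bgn, Col1a1, Col3a1, Dcn and Ogn, the last named after its values were seen. On knockout replicate 1, 6 genes of the list lay above all wild-type arrays (28.1% of all genes), 6 below (30.1% of all genes) and 3 within their range.

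The 14 genes of ependyma and motile cilia stood at 0.17, 0.16 and 0.24 on the knockout arrays (-0.07 to 0.05 on the wild-type arrays), with no dip on knockout replicate 2. In that list 2 rose (2.72% of all genes), the dynein light chain gene Dynlrb2 (0.64, adjusted p = 0.0137) and the ciliary axoneme gene Spag16 (0.40, adjusted p = 0.0327). In the same list 0 fell (3.94% of all genes), and the median change was 0.14. Foxj1, the regulator of motile cilia, differed by 0.29, Ccdc153 by 0.04 and Tmem212 by 0.03, and none of these 3 passed. Dynlrb2 did not pass without wild-type replicate 2 (adjusted p = 0.0596), nor Spag16 without any array other than knockout replicate 2 (adjusted p of 0.0667 to 0.113). With a prior without a trend neither passed (adjusted p = 0.0581 for Dynlrb2 and 0.0596 for Spag16).

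The vessel and immune lists had means near the wild-type level on every knockout array, though single genes departed from it. The 13 endothelial and mural genes averaged -0.03, -0.09 and 0.02 on the knockout arrays (-0.03 to 0.03 on the wild-type arrays). In limma 0 rose and 0 fell, where 2.72% and 3.94% of all genes did. At an unadjusted p under 0.05, 0 were higher and 1 was lower (9.57% and 10.9% of all genes). The lower gene was Slco1a4, an organic anion transporter of brain endothelium, named here after its values were seen. It read 7.23, 6.96 and 7.68 in knockout, against 7.60, 7.71 and 7.72 in wild type (change -0.39, adjusted p = 0.18), and it fell without knockout replicate 3. The 10 macrophage and microglia genes averaged -0.03, 0.04 and 0.06 on the knockout arrays, with 0 calls at either threshold. With lists this short and the same shares over all genes, few or no calls would be common. Pecam1, Cdh5, Flt1 and Cldn5 differed by -0.03, 0.04, -0.14 and -0.05, and Mrc1, Pf4, Lyve1 and Cd163 by 0.16, -0.03, -0.13 and 0.07.

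Of 9 genes of the roof plate and rhombic lip, 3 rose and 0 fell (2.72% and 3.94% of all genes), with a median change of 0.03. They were Wls, a carrier needed for WNT secretion (0.60, adjusted p = 0.0036), Eomes, of unipolar brush cells (0.51, adjusted p = 0.0330), and Atoh1 (0.52, adjusted p = 0.0019). Eomes did not pass without knockout replicate 1 or 3 (adjusted p = 0.0542 and 0.0547) or wild-type replicate 1 or 3 (adjusted p = 0.133 and 0.0748), nor with a prior without a trend (adjusted p = 0.112). The roof plate signals Gdf7, Wnt1 and Wnt3a differed by 0.09, 0.03 and -0.12 and did not pass. Xist, which marks arrays with female RNA, read 5.79, 6.45 and 12.30 in knockout and 12.27, 12.32 and 5.74 in wild type. It was thus high on knockout replicate 3 and on wild-type replicates 1 and 2, and the groups were not balanced for it. The 2 knockout arrays with high choroid plexus values differed in it. The fit held no term for sex, and the part of sex in these changes was not tested.

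**Figure D5:**
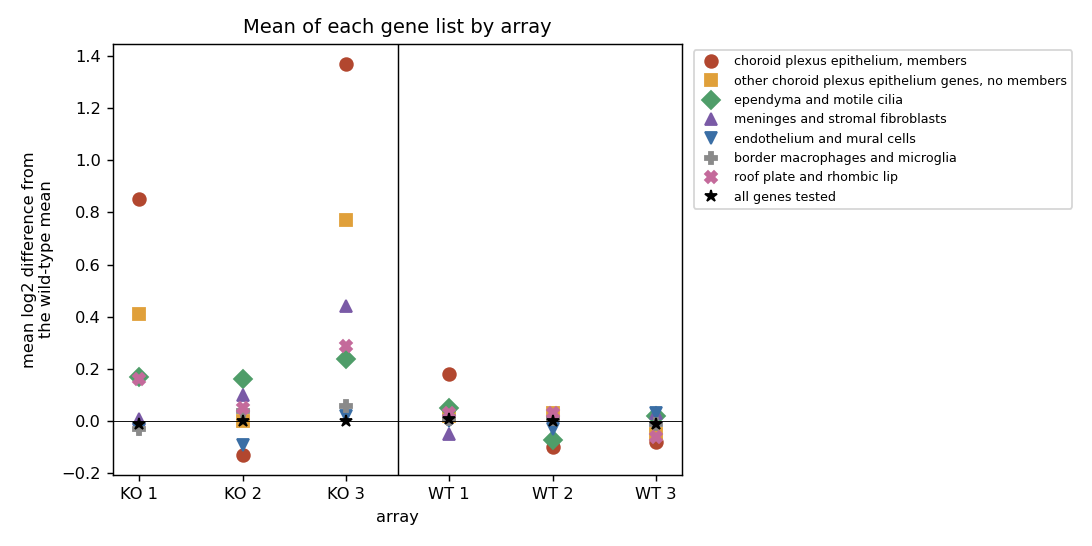
Mean of each gene list on each array (log2 difference from the wild-type mean; knockout arrays left, wild-type arrays right), with all genes tested as stars. The 32 choroid plexus genes ("members") stand at 0.85, -0.13 and 1.37 on the knockout arrays, while the endothelial list stays between -0.09 and 0.03 on all 6 arrays.

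Genes outside the set were ranked by how closely their profile over the 6 arrays followed that of the set. The measure was the root mean square difference between centred values divided by their SD, where 0 is identity, among 311 named genes spanning at least 1 log2 unit. The 10 nearest were Prr32 (0.10), Col8a1 (0.13), Mir764 (0.14), Defb9 (0.16), Sulf1, Ecrg4, Sgms2 and Igfbp2 (0.18 each), and Mir1912 and Snora35 (0.19 each). Of these, 4 came from the further choroid plexus list, of which 8 genes spanned at least 1 log2 unit. Another 3 lay inside Htr2c, and their probe sets can also pick up its transcript. None of the 10 passed the test. Over 6 arrays with 2 high ones, many genes can share such a profile.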

How the data were processed

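The authors deposited 1 log2 expression value for each probe set on each array. Per the submitters' processing notes, RMA and the oligo package were used, with no version named. The labels' protocols give Trizol extraction and WT PLUS labelling. No source used here states which array design or build it was, or whether probe sets were filtered before deposit. Of 41345 probe sets, 23521 had 1 symbol in GEO's platform annotation, 1814 several and 16010 none. Entrez identifiers of 23328 matched RefSeq (GRCm38.p6), and 0 symbols were updated.

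Values were used as deposited, with no further normalization. Knockout and wild type (3 arrays each, which limits precision) entered limma 3.58.1 under R 4.3.3 (lmFit, then eBayes with trend), two-sided, with Benjamini-Hochberg adjustment over 22180 genes. The fit was tested on simulated data. Alternatives varied the prior, scaling, filter, weights, pairing, probe set choice, threshold and arrays. Tables and plots used Python 3.11.15, pandas 2.3.3 and matplotlib 3.10.9.

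The set and the lists were chosen with earlier results of these data known. The naming rule took all genes of the set, Crebbp, the first 4 and any passing genes of each other list, up to 10 genes nearest in profile, and promoters with the OTX motif. The genes inside Htr2c, Trpm3, Igf2 and Slco1a5 were chosen for their position, with values in view.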

Additional observations from a re-analysis of the deposited data

How the results depend on the processing

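Of the genes of the set, 1 rose with all 6 arrays. The count was 0 with a prior without a trend and with a robust prior, 5 with the replicate number as a block, 3 at an adjusted p under 0.10 and 0 at 0.01, and ran from 0 to 21 with each array left out. The count that fell ran from 0 to 1 with each array left out. Over all genes, 604 rose and 875 fell. These were 184 and 310 without a trend, 1023 rose at 0.10, and 148 and 343 passed at 0.01. With each array left out the count that rose ran from 199 to 478, and the count that fell from 366 to 800. Over all genes, deviations of same-numbered arrays from their group means correlated with r of 0.01, 0.03 and -0.13, and those of other pairs with -0.14 to 0.12. Such correlations cannot decide whether same-numbered arrays share a litter or a processing step that acts on some genes. The labels name no pairing, and it was not tested further. With the block 723 of all genes rose, and of the set Calml4, Cldn1, Fxyd1, Sostdc1 and Ttr did, while Slc31a1 (adjusted p = 0.0514) and Spag16 (adjusted p = 0.0515) of the other lists did not. The median change of the set was 0.67 to 0.73 under the filter, scaling, weighting and block alternatives.

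Of 511 values for single genes, 466 kept their direction and side of the threshold, 27 gained a call, 7 lost one and 11 reversed. Slc12a2 reversed with median centring (-0.01) and without knockout replicate 1 (-0.02) or 3 (-0.04) or wild-type replicate 1 (-0.04) or 3 (-0.03). Krt18 reversed without knockout replicate 3 (-0.14) and wild-type replicate 3 (-0.03). Without knockout replicate 3, Otx2 (-0.10), Ace (-0.12), F5 (-0.22) and Lmx1a (-0.20) reversed. Over the fits that omit 1 array, Slc12a2 lay between -0.04 and 0.09, Krt18 between -0.14 and 0.43, Otx2 between -0.10 and 0.26, Ace between -0.12 and 0.49, F5 between -0.22 and 0.57 and Lmx1a between -0.20 and 0.39. None of these passed in any of those fits, and the cause was not tested. The arrays have no background measure, so dim genes such as Cldn2 and F5 have no detection call.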

Other observations

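The genes with the widest spans over the 6 arrays hold many of the choroid plexus set: 5 of the first 20 genes and 18 of the first 100. Defb11, a beta-defensin gene chosen after its values were seen, read 7.67, 3.70 and 8.32 in knockout, against 4.01, 4.14 and 3.81 in wild type. Its span of 4.63 log2 units was the sixth widest, with the wild-type arrays close together, and its change of 2.58 did not pass (limma adjusted p = 0.142). Defb9, of the same family, read 6.41, 4.51 and 6.87 in knockout, against 5.03, 4.92 and 4.82 in wild type.

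The lens crystallin gene Cryga, also chosen after its values were seen, was likewise highest on knockout replicates 3 and 1 but departed on wild-type replicate 3. It read 8.69, 7.22 and 8.73 in knockout, against 6.27, 6.34 and 7.96 in wild type, so wild-type replicate 3 was high where the choroid plexus genes were not (change 1.36, adjusted p = 0.135). Cryba1, another lens crystallin gene, read 7.89, 6.04 and 8.0 in knockout, against 5.86, 5.90 and 7.02 in wild type. It too was highest on knockout replicates 3 and 1, with wild-type replicate 3 next and above knockout replicate 2. Crygf, a dim gene of the same kind, had its highest value on wild-type replicate 3. It read 4.43, 4.43 and 4.93 in knockout, against 3.67, 2.91 and 5.14 in wild type (change 0.69, adjusted p = 0.448).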
